A study of Mus musculus with 6 samples.

Results

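The mitochondrial genome of the mouse was represented by 13 of the 35591 rows of an expression table from embryonic tailbud, and these 13 rows are the subject here. They were chosen by their chromosome, MT, and all 13 are protein-coding genes. No rRNA or tRNA row carried that chromosome, so both rRNAs and the tRNAs of the mitochondrial genome were not analysed here. The table came from RNA-seq of the tailbud, which holds the presomitic mesoderm that forms the somites, dissected from single FVB/NJ embryos with 8 somites. Of the 6 embryos, 3 were wild type (WT, Smchd1+/+) and 3 were homozygous for MommeD43 (Smchd1MommeD43/MommeD43), an ENU-induced missense allele of Smchd1 that the study describes as changing the function of the protein and not removing it. Each group had 1 male (replicate 1) and 2 females (replicates 2 and 3). By the labels both male embryos, 1 of each genotype, came from the same mother, and the 4 females came from 4 other mothers. SMCHD1 is a chromatin protein of the nucleus, and the comparison of genotypes asks whether the steady level of RNA from the other genome of the cell differed in the homozygous embryos.

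The mitochondrial genome is a small circle that lies outside the nucleus in many copies per cell. It is inherited from the mother and transcribed from both strands as long precursors, which are cut, mostly at the tRNAs that lie between the mRNAs, and the mRNAs of the heavy-strand precursor are then polyadenylated. Every protein it encodes is a core subunit of an oxidative phosphorylation complex and is assembled with subunits that are encoded in the nucleus and imported. Complex I (NADH dehydrogenase) takes the products of the mt-Nd genes, complex III takes cytochrome b from mt-Cytb, complex IV (cytochrome c oxidase) takes those of the mt-Co genes, and the ATP synthase takes those of mt-Atp6 and mt-Atp8. Stretches of mitochondrial DNA have also been copied into nuclear chromosomes during evolution, and these nuclear copies can carry nearly the same sequence as the genes they came from.

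The libraries held between 10957916 and 47298348 reads, and 14134 genes passed the filter on low reads and were tested. Smchd1 itself, which a missense allele need not lower, averaged 8.07 ± 0.672 RPKM in the WT group against 7.58 ± 0.3997 in the MommeD43 group (SD, n = 3). RPKM is the number of reads per kilobase of exon and per 1000000 reads of the library. All 15 markers of tailbud and presomitic mesoderm, such as T, Tbx6 and Msgn1, were read in every library, with a summed level of 964 to 1315 RPKM. The tissue field of the labels gives tailbud, the titles give PSM (presomitic mesoderm), and the source field gives another tissue, neural stem cells. Markers of other tissues varied between libraries. The summed level of 10 markers of yolk sac and visceral endoderm was 41.1 to 465 RPKM, and that of 10 markers of primitive blood was 8.97 to 487 RPKM. Whether tissue carried over in dissection made this difference was not tested. The 7 endothelial markers summed to 24.0 to 44.7 RPKM and the 9 markers of heart muscle to 4.81 to 9.26 RPKM.

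All 13 genes are single exons without introns, and the coordinates that follow are those of chromosome MT in GRCm38, counted from 1. The 7 genes of complex I were mt-Nd1 (ENSMUSG00000064341, bases 2751 to 3707), mt-Nd2 (ENSMUSG00000064345, 3914 to 4951), mt-Nd3 (ENSMUSG00000064360, 9459 to 9806), mt-Nd4l (ENSMUSG00000065947, 9877 to 10173), mt-Nd4 (ENSMUSG00000064363, 10167 to 11544), mt-Nd5 (ENSMUSG00000064367, 11742 to 13565) and mt-Nd6 (ENSMUSG00000064368, 13552 to 14070). Complex III was represented by mt-Cytb (ENSMUSG00000064370, 14145 to 15288). The 3 genes of complex IV were mt-Co1 (ENSMUSG00000064351, 5328 to 6872), mt-Co2 (ENSMUSG00000064354, 7013 to 7696) and mt-Co3 (ENSMUSG00000064358, 8607 to 9390). The ATP synthase was represented by mt-Atp8 (ENSMUSG00000064356, 7766 to 7969) and mt-Atp6 (ENSMUSG00000064357, 7927 to 8607). mt-Nd6 was the only gene on the minus strand of the annotation, which makes it the only mRNA of the light-strand precursor, and the 12 others lay on the plus strand.

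The genome is so compact that neighbouring genes overlap, and the sequences of 3 overlapping genes are shown for this reason (GENCODE M21 transcripts, GRCm38, written 5′ to 3′). mt-Atp8, at MT:7766-7969, shares its last 43 bases, in capitals, with the start of mt-Atp6:
mt-Atp8: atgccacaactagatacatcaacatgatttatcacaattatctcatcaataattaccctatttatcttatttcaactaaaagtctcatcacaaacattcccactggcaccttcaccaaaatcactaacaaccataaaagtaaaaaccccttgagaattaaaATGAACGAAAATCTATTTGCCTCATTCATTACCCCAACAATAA
The ends of mt-Nd5 (bases 1780 to 1824, MT:13521-13565, plus strand) and of mt-Nd6 (bases 475 to 519, MT:13552-13596, minus strand) overlap by 14 bases on opposite strands, in capitals in both:
mt-Nd5: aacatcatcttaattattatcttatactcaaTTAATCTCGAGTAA
mt-Nd6: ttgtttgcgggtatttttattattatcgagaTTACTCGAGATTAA
Both stretches are shorter than a read of 75 bases, so a read that covers one also reaches into sequence outside the overlap. Whether reads were counted by strand is not given in the study's methods.

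A block of nuclear copies on chromosome 1 repeats the middle of the mitochondrial genome almost base for base. It holds 7 annotated unprocessed pseudogenes on the minus strand of chr1:24611535-24616197 (GRCm38), from Gm29216, a copy of the last part of mt-Co1, to Gm28439, a copy of the first 876 bases of mt-Nd4. Between them lie Gm28661 (mt-Co2), Gm10925 (mt-Atp6), Gm28437 (mt-Co3), Gm28438 (mt-Nd3) and Gm10222 (mt-Nd4l), in the order of the genes they match. Of the 7 copies, 5 matched their gene at 100% of the aligned bases (294 to 876 bases). Gm28438 matched mt-Nd3 at 99.71% of 345 bases and Gm29216 matched mt-Co1 at 98.78% of 492 bases. The spacing between neighbouring copies equalled that between the mitochondrial genes for 5 of the 6 gaps, and for the gap between mt-Nd3 and mt-Nd4l it was 74 bases against 73.

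The sequences show how little separates the genes from these copies. Over the whole alignment Gm28438 had a single difference from mt-Nd3, T3C, with the mitochondrial base first and positions counted from 1 at the first base of the gene. The first 45 bases of mt-Nd3 (MT:9459-9503, plus strand) and of Gm28438 (chr1:24613075-24613119, minus strand) are given with that base in capitals:
mt-Nd3: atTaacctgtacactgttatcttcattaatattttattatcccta
Gm28438: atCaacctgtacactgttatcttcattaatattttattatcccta
All 6 differences of Gm29216 (T1056A, C1057T, A1059G, A1060G, C1062A and A1066T in mt-Co1) fell at the start of the copy, as in bases 1054 to 1098 of mt-Co1 (MT:6381-6425, plus strand) beside the first 45 bases of the copy (chr1:24616153-24616197, minus strand):
mt-Co1: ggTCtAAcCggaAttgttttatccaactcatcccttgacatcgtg
Gm29216: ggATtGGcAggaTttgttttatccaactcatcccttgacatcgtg
mt-Nd4l, at MT:9877-10173, is shown whole, since Gm10222 repeats all of it but the last 3 bases, in capitals:
mt-Nd4l: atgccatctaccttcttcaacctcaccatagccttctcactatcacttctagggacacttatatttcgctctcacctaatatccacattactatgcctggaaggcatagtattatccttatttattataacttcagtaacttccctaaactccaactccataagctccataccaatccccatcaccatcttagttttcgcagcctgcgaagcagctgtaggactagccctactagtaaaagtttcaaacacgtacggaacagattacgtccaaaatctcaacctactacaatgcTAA
These are reference sequences, and the mitochondrial sequence of FVB/NJ was not analysed.

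To measure how much of each gene could be told apart by a read, every window of 75 bases, the length of the reads, was searched in the transcripts of all nuclear genes. No window of mt-Nd1, mt-Cytb, mt-Nd6 or mt-Atp8 was found exactly in these transcripts. Nuclear copies without an annotated transcript were not searched. The share was 1.7% for mt-Nd5, 5.7% for mt-Nd2, 39.8% for mt-Co1 and 61.5% for mt-Nd4. It was 97.8% for mt-Nd3, 98.7% for mt-Nd4l, 99.5% for mt-Co2 and mt-Atp6 and 99.9% for mt-Co3, which left between 1 and 6 windows of their own in these 5 genes. How reads that map to several places were treated is not given in the sources used here, and the 7 copies themselves were not analysed here. The values of these 5 genes, and to a lesser degree those of mt-Nd4 and mt-Co1, are therefore uncertain as levels of the mitochondrial mRNA. For mt-Atp8 the search could not decide this, since the matching stretch of the chromosome 1 block has no annotated transcript.

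The 13 rows fell into 2 sets of very different level. mt-Nd1, mt-Nd2, mt-Nd4, mt-Nd5, mt-Cytb and mt-Co1 had over 5000 reads in every library, stood between 293 and 2179 RPKM and held 99.8% of the reads of the 13 rows. They ranked among the 46 highest of the 14134 tested genes by mean level, with mt-Co1 at rank 4, mt-Cytb at rank 5 and mt-Nd1 at rank 8. The 7 others stood between 0.173 and 16.4 RPKM, with 1 to 324 reads per library.

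**Figure D1:**
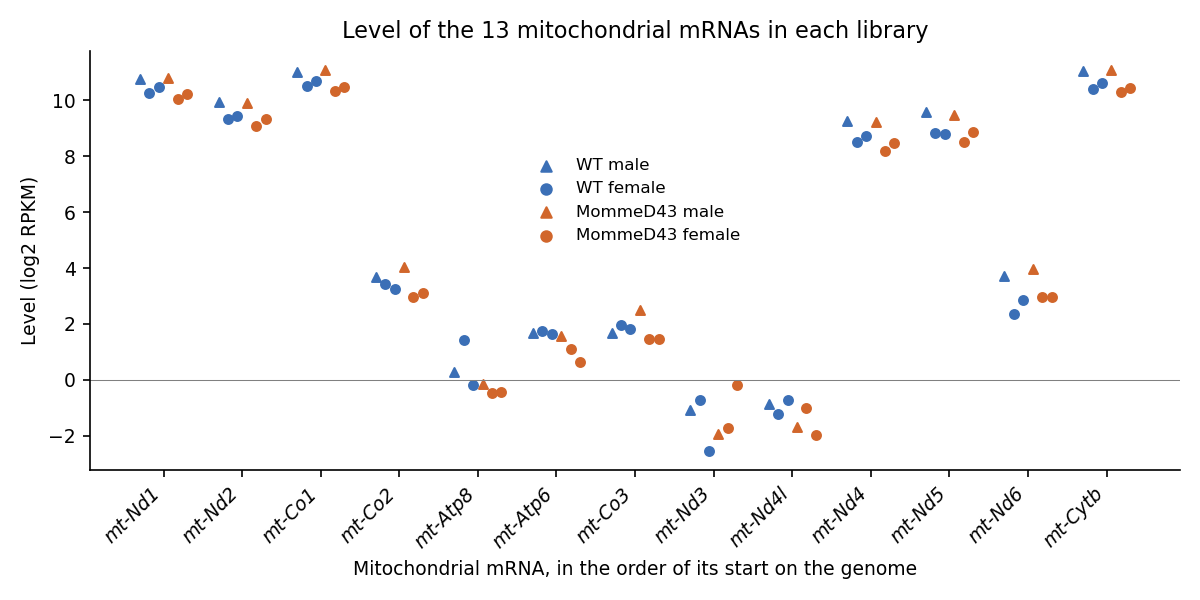
Level of each of the 13 mitochondrial mRNAs (log2 RPKM, vertical axis) in each of the 6 libraries, with genes in the order of their start on the genome, WT in blue, MommeD43 in orange, males as triangles and females as circles. The 6 genes with over 5000 reads in every library lie above log2 8, the 7 others lie near or below log2 4, and in each of the 6 the triangles of both genotypes lie above all circles.

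Among the complex I genes, mt-Nd1 stood at 1736, 1232 and 1417 RPKM in WT replicates 1 to 3 and at 1759, 1066 and 1191 RPKM in MommeD43 replicates 1 to 3. mt-Nd2 was at 980, 651 and 696 RPKM in WT and at 948, 541 and 636 RPKM in MommeD43. In both genes replicate 1 of each group, the male, was highest and the groups overlapped. mt-Nd4 was at 606, 367 and 426 RPKM in WT and at 604, 293 and 356 RPKM in MommeD43. mt-Nd5, the longest of the 13 genes at 1824 bases, was at 773, 452 and 441 RPKM in WT and at 719, 367 and 467 RPKM in MommeD43. The males were again highest, and the groups overlapped in both genes. mt-Nd6, which like mt-Nd1 shares no window with an annotated nuclear transcript, was nevertheless low. It was at 13.1, 5.06 and 7.30 RPKM in WT (62 to 249 reads) and at 15.5, 7.86 and 7.80 RPKM in MommeD43 (53 to 193 reads). mt-Nd3 and mt-Nd4l had 1 to 7 reads in each library, which put mt-Nd3 at 0.173 to 0.878 RPKM and mt-Nd4l at 0.257 to 0.608 RPKM. At this depth a single library says little about either. The exact (Clopper-Pearson) 95% interval of mt-Nd4l in MommeD43 replicate 3 ran from 0.00651 to 1.43 RPKM.

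mt-Cytb, the only mitochondrial gene of complex III, was at 2092, 1363 and 1563 RPKM in WT and at 2179, 1265 and 1396 RPKM in MommeD43. mt-Co1, which encodes the catalytic subunit of cytochrome c oxidase, was at 2048, 1442 and 1633 RPKM in WT and at 2153, 1284 and 1422 RPKM in MommeD43. These highest of the mitochondrial mRNAs had the same order of libraries within each group, with replicate 2 lowest. The other complex IV genes were far lower. mt-Co2 was at 12.9, 10.6 and 9.59 RPKM in WT and at 16.4, 7.82 and 8.71 RPKM in MommeD43, and mt-Co3 was at 3.17, 3.94 and 3.53 RPKM in WT and at 5.70, 2.78 and 2.73 RPKM in MommeD43. Both had their highest value in the MommeD43 male and their 2 lowest in the MommeD43 females. Intervals of single libraries cover counting error only, since reads without molecular identifiers are not independent molecules.

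Of the ATP synthase genes, mt-Atp6 was at 3.21, 3.36 and 3.09 RPKM in WT (80, 54 and 35 reads) and at 2.95, 2.14 and 1.57 RPKM in MommeD43 (22, 69 and 14 reads). All 3 WT libraries lay above all 3 MommeD43 libraries, which was the case for no other of the 10 tested genes. mt-Atp8, which shares no window with an annotated nuclear transcript, had 9, 13 and 3 reads in WT and 2, 7 and 2 reads in MommeD43. That made 1.20, 2.70 and 0.885 RPKM in WT and 0.895, 0.725 and 0.749 RPKM in MommeD43, and the groups overlapped. Its place in the mitochondrial genome falls in the stretch between mt-Co2 and mt-Atp6, which has 233 bases in the chromosome 1 block as well, and no transcript was annotated there.

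**Figure D2:**
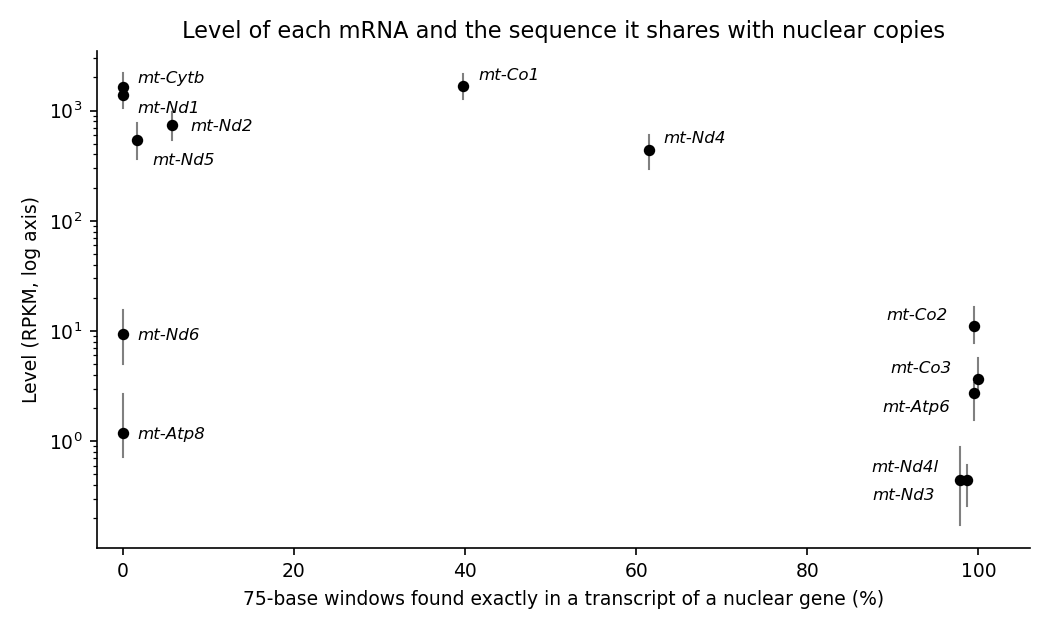
Mean level of each mitochondrial mRNA over 6 libraries (RPKM, log axis, with a bar from the lowest to the highest library) against the percent of its 75-base windows found exactly in a transcript of a nuclear gene. The 5 genes at 97.8% or more lie at or below 16.4 RPKM, the 6 well-covered genes lie between 0% and 61.5%, and mt-Nd6 and mt-Atp8 are low at 0%.

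By mean log2 RPKM the order from the highest was mt-Co1, mt-Cytb, mt-Nd1, mt-Nd2, mt-Nd5, mt-Nd4, mt-Co2, mt-Nd6, mt-Co3, mt-Atp6, mt-Atp8, mt-Nd4l and mt-Nd3. Of the 12 pairs of neighbours in this order, 8 had the same direction in all 6 libraries. Each of these had an adjusted p of 0.0469 (two-sided exact sign-flip test over 6 libraries, with 0.03125 the smallest unadjusted p possible). The order was ranked on these same 6 libraries, so the test describes how far they agreed and is not separate evidence for the order. The widest step, 5.32 ± 0.171 on the log2 scale (SD over libraries), lay between mt-Nd4 and mt-Co2, a row with 99.5% of its windows in nuclear copies. All lower steps also involve a row with nearly all of its windows in nuclear copies. mt-Co1 and mt-Cytb did not differ beyond their spread, with a difference of 0.02 ± 0.04 (exact adjusted p = 0.307), nor did mt-Co2 and mt-Nd6 (0.28 ± 0.42, exact adjusted p = 0.15), mt-Co3 and mt-Atp6 (0.42 ± 0.38, exact adjusted p = 0.0833) or mt-Nd4l and mt-Nd3 (0.12 ± 1.20, exact adjusted p = 0.781). The order was the same in the WT libraries alone, and 11 of the 12 neighbours kept it in the MommeD43 libraries alone.

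The order of the well-covered genes depended on which bases were counted. When reads were divided by the number of windows found in the mitochondrial row alone and not by exon length, mt-Nd4 moved from last of the 6 to rank 4, at 1213 ± 366 reads per 1000 such windows and per 1000000 reads (SD over 6 libraries), above mt-Nd2 at 847 ± 205 and mt-Nd5 at 569 ± 177. mt-Co1 lay above mt-Cytb, at 2904 ± 624 against 1757 ± 422. mt-Nd1 was at 1518 ± 316, and mt-Nd6 was still low at 11.0 ± 4.63. This measure was added after the levels were seen, and it assumes that reads in shared windows were not counted.

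**Figure D3:**
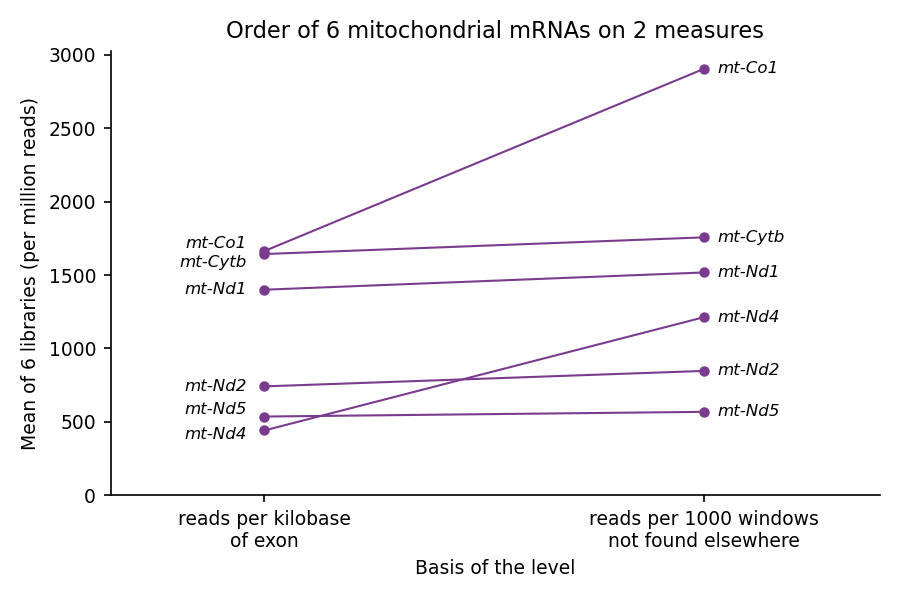
Mean level over 6 libraries of the 6 well-covered mitochondrial mRNAs, on the left as reads per kilobase of exon and on the right as reads per 1000 windows of 75 bases found in no nuclear transcript, both per 1000000 reads on a linear axis. Lines join the same gene, and the line of mt-Nd4 crosses those of mt-Nd2 and mt-Nd5.

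Between the genotypes, no mitochondrial mRNA passed the test. Of the 13, 10 passed the filter on low reads and were tested (limma on log2 RPKM, fitted over all 14134 genes with Benjamini-Hochberg adjustment), and the adjusted p was 0.9995 for each of them. At this threshold 0 of all genes were called (0%), and 343 of them (2.43%) had an unadjusted p under 0.05, 140 of these with MommeD43 lower (0.991%), as did 1 of the 10 mitochondrial mRNAs, which was lower. limma voom on the recovered reads also called 0 genes after adjustment, and 439 before it. The log2 difference, MommeD43 minus WT, was below 0 in 9 of the 10, with a median of -0.10, beside a median of 0.00206 and 49.2% of genes below 0 over all tested genes. Most of these mRNAs varied together between libraries, as described below, so such counts of them are not counts of independent genes.

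The 6 well-covered mRNAs all had a slightly lower mean in MommeD43, with overlapping groups. mt-Co1 averaged 1708 ± 309 RPKM in WT and 1620 ± 467 RPKM in MommeD43 (SD, n = 3), a log2 difference of -0.10 ± 0.20 (SE). mt-Cytb averaged 1673 ± 377 and 1613 ± 494 RPKM, with a log2 difference of -0.07 ± 0.22. mt-Nd1 averaged 1462 ± 255 and 1339 ± 369 RPKM (-0.15 ± 0.19). In each of these genes the SD within either group, which includes its high male, exceeded the difference between the means. For mt-Nd2 the log2 difference was -0.15 ± 0.22, for mt-Nd4 it was -0.20 ± 0.27 and for mt-Nd5 it was -0.11 ± 0.28. The 95% intervals of the 6 differences lay within -0.82 and 0.53 on the log2 scale. With sex as a covariate they lay within -0.45 and 0.14, and the levels were not shown to be equal. limma voom gave differences of -0.28 (mt-Nd4) to -0.13 (mt-Cytb) for these mRNAs, with -0.15 for mt-Co1 and -0.19 for mt-Nd5.

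Among the rows with few reads, mt-Atp6 had the largest difference, with a mean of 3.22 ± 0.133 RPKM over WT libraries and of 2.22 ± 0.692 over MommeD43 libraries (SD, n = 3). The log2 difference was -0.58 ± 0.21 (SE, 95% interval -1.07 to -0.09), with an unadjusted p of 0.0256 and an adjusted p of 0.9995 by limma. Over all tested genes the groups did not overlap in 7.07% of cases, and in 3.54% with MommeD43 lower, so 1 of 10 is near the background. This row has 99.5% of its windows in a nuclear copy and 274 reads in all. mt-Co2 (-0.08 ± 0.26) and mt-Co3 (-0.01 ± 0.27) showed smaller differences than their SE. mt-Nd6 was the only tested mRNA with a higher mean in MommeD43, at 10.4 ± 4.41 against 8.49 ± 4.15 RPKM (0.32 ± 0.37). By limma voom the differences were -0.31 for mt-Co2, -0.14 for mt-Co3, 0.06 for mt-Nd6 and -0.59 for mt-Atp6.

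**Figure D4:**
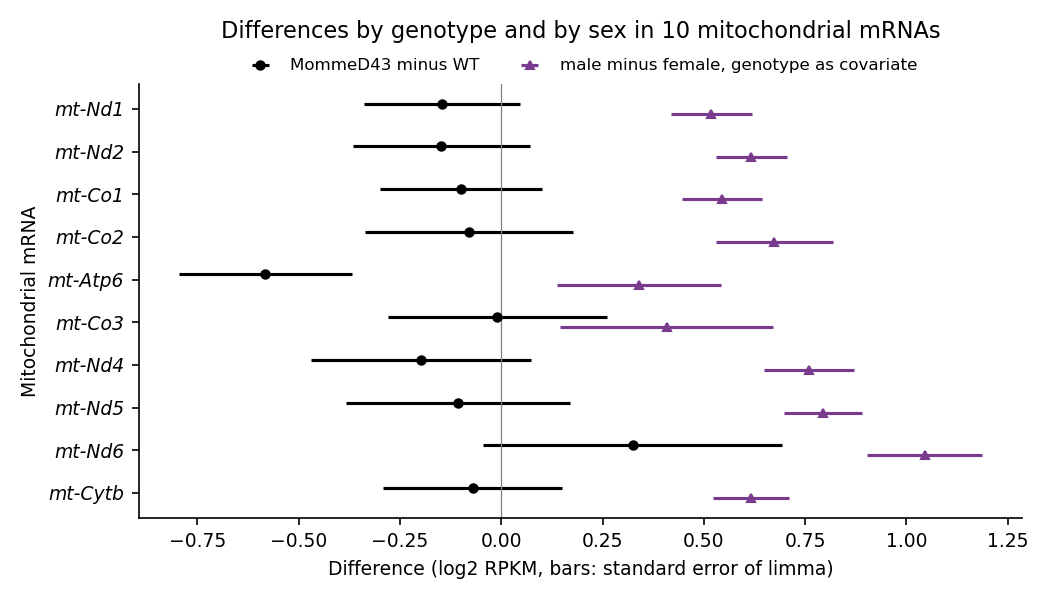
Differences in log2 RPKM of the 10 tested mitochondrial mRNAs (points, with bars for the standard error of limma), for MommeD43 minus WT in black and for male minus female with genotype as a covariate in purple. The black points lie within -0.20 and 0.32 except for mt-Atp6 at -0.58, and the purple points all lie above 0.

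Summed over the 13 rows, mitochondrial mRNA made up 1.05% of the reads in WT replicate 1, 0.699% in WT replicate 2, 0.780% in WT replicate 3, 1.07% in MommeD43 replicate 1, 0.610% in MommeD43 replicate 2 and 0.695% in MommeD43 replicate 3. The widest exact (Clopper-Pearson) 95% interval of these shares, in MommeD43 replicate 1, ran from 1.06% to 1.07%, so counting error was small beside the spread between embryos. The group means were 0.843% ± 0.184 in WT and 0.790% ± 0.242 in MommeD43 (SD, n = 3), a difference of -0.0527 percentage points (two-sided exact permutation test, p = 0.7, with 0.1 the smallest p possible for 3 against 3). The direction turned without WT replicate 1 (0.0509) or without MommeD43 replicate 2 (0.0375). In pieces of whole tissue such as these, fewer cells of a type and less RNA per cell cannot be told apart.

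The balance between the mitochondrial mRNAs was also compared, with each taken relative to the mean of the 13 in its own library. mt-Atp8 was the only mRNA whose groups did not overlap, with a log2 difference of -0.67 between MommeD43 and WT (exact permutation p = 0.1, the smallest possible), and it rested on 36 reads in all. Taken in the same way, the groups did not overlap in 2.80% of all tested genes, and without this reference in 7.07%. The reference carries the spread of the mitochondrial mRNAs into the nuclear genes, so the 2.80% is not a like background for mt-Atp8. The groups of mt-Atp8 overlapped when the 6 well-covered rows or the median of the 13 were used as the reference. The light-strand mRNA mt-Nd6, minus the mean of the 12 heavy-strand mRNAs on the log2 scale, was at -1.87, -3.04 and -2.30 in WT and at -1.54, -1.93 and -2.07 in MommeD43. The difference of 0.55 between the groups (WT mean -2.40 ± 0.591, MommeD43 mean -1.85 ± 0.277, SD, n = 3) had an exact permutation p of 0.3, and leaving out WT replicate 2 gave 0.235, whereas leaving out WT replicate 1 gave 0.820. Against its neighbour mt-Cytb, whose RPKM was 141 to 270 times that of mt-Nd6, the groups overlapped as well. The 12 include mt-Nd3, mt-Nd4l and mt-Atp8, which had few reads. Against the mean of the 6 well-covered rows, a reference that was not planned, mt-Nd6 lay between -7.30 and -6.31. The groups then differed by 0.452 (exact permutation p = 0.2). The libraries were poly(A)-selected, and the part of this in the low level of mt-Nd6 was not tested.

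What did separate the libraries was shared by the well-covered mRNAs. Taken as log2 deviation from the mean of the 6 libraries and averaged over the 6 mRNAs, WT replicate 1 lay at 0.43 and MommeD43 replicate 1 at 0.43, which is 1.35-fold and 1.34-fold above that mean. The 4 others lay at -0.19 (WT replicate 2), -0.05 (WT replicate 3), -0.42 (MommeD43 replicate 2) and -0.20 (MommeD43 replicate 3). The 2 high libraries were the 2 males. After this shared deviation was taken out, the SD over libraries fell from between 0.30 and 0.43 to a median of 0.07 over the 6 mRNAs. The SD before that was also large beside other genes of such levels, since 370 nuclear genes with a mean of at least 100 RPKM had a median SD of 0.08 and 99.2% of them had a lower SD than any of the 6.

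**Figure D5:**
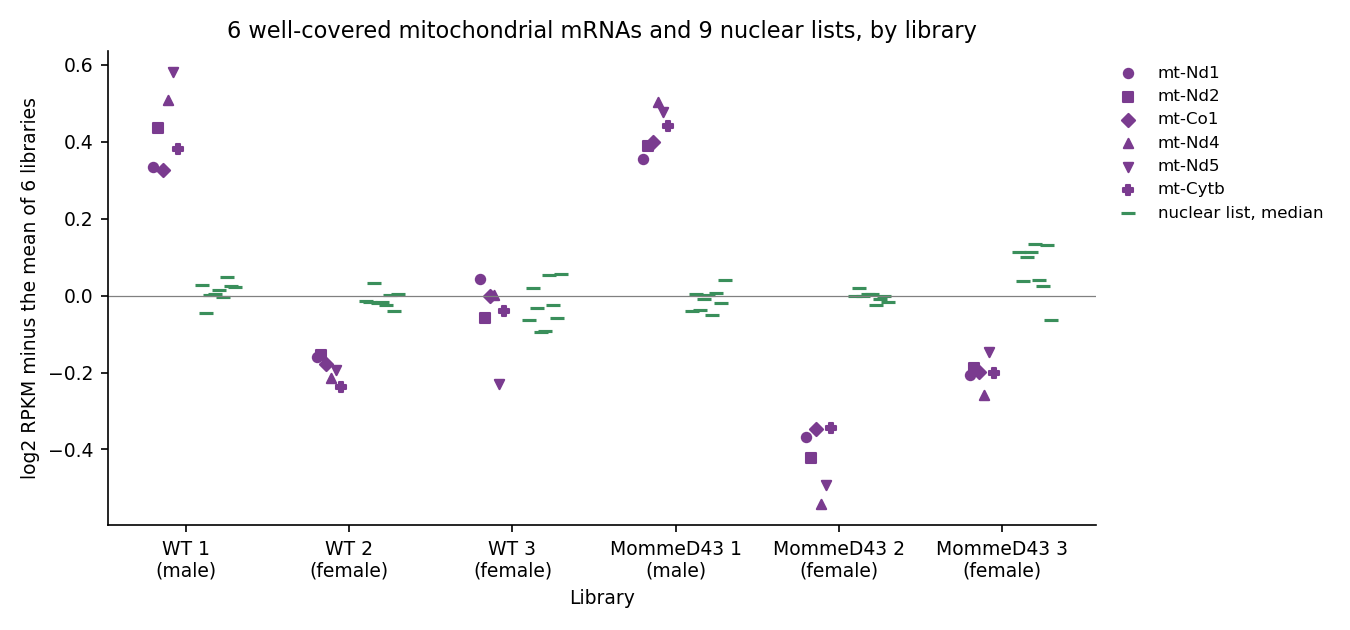
Log2 RPKM minus the mean of the 6 libraries (vertical axis) in each library, for the 6 well-covered mitochondrial mRNAs (purple symbols) and for the median of each of 9 lists of nuclear genes for mitochondrial proteins (green bars). The purple symbols of both males lie between 0.33 and 0.58, those of the females lie below 0.05, and the green bars stay between -0.09 and 0.13.

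The difference between males and females was therefore examined, a comparison that was chosen after the levels were seen. With genotype as a covariate, all 10 tested mRNAs had a higher mean in the 2 males than in the 4 females, with a median log2 difference of 0.62 beside -0.01 over all tested genes. In 8 of the 10, all but mt-Atp6 and mt-Co3, both males lay above all 4 females, which held for 8.59% of all tested genes. Because the well-covered mRNAs deviated together, this is not a count of independent genes and cannot be weighed against that share. mt-Nd5 averaged 746 RPKM in males and 432 RPKM in females (0.79 ± 0.10, SE, unadjusted p = 6.91e-05 by limma) and mt-Nd6 averaged 14.3 and 7.01 RPKM (1.05 ± 0.14). mt-Nd4 (0.76 ± 0.11), mt-Nd2 (0.62 ± 0.09), mt-Cytb (0.62 ± 0.09), mt-Co1 (0.54 ± 0.10), mt-Nd1 (0.52 ± 0.10) and the low row mt-Co2 (0.67 ± 0.14) had smaller differences. None of the 10 passed adjustment (limma, adjusted p 0.244 to 0.687), although 8 had an unadjusted p under 0.05, as did 8.21% of all genes, and a single gene of the 14134 (0.00708%), the X-linked Xist, passed it.

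Sex and mother cannot be told apart in this comparison, because both males had the same mother and no female had that mother. The fit also took both males as independent embryos, so the spread between mothers was not measured among males. The SE and p-values given above for the differences between males and females leave that spread out and may be too small. The male libraries held 36617081 and 10957916 reads and the female libraries 13088211 to 47298348, and the part of depth was not tested. The summed level of the blood markers was 8.97 and 25.5 RPKM in the males and 22.8, 206, 221 and 487 RPKM in the females, with 6 of the 10 markers read in every library and Gata1 listed at 0 in both males and in MommeD43 replicate 3. That of the yolk sac markers was 149 and 465 RPKM in the males and 41.1 to 299 RPKM in the females, with all 10 read in every library. The part of either tissue in the difference was not tested.

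With sex as a covariate the spread of the comparison of genotypes narrowed, and again no mRNA passed adjustment (limma, adjusted p 0.997 to 0.9994). mt-Nd1 then had a 95% interval of -0.37 to 0.07 and mt-Cytb of -0.28 to 0.14 around the same differences. mt-Nd6 (0.32, interval 0.01 to 0.64, unadjusted p = 0.0446 by limma) and mt-Atp6 (unadjusted p = 0.0180 by limma) fell under 0.05 before adjustment, as did 2.88% of all genes in that fit. In females alone, 9 of the 10 mRNAs were lower in MommeD43, down to -0.81 for mt-Atp6, with adjusted p from 0.390 to 0.766 by limma, and 48.5% of all genes were lower in that comparison. The summed level of the yolk sac markers also separated these females, at 266 and 299 RPKM in WT and 55.1 and 41.1 RPKM in MommeD43, and its part in the differences was not tested.

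Whether the difference between genotypes was itself unlike in females and males was tested with an interaction term, which rests on a single male of each genotype and leaves 2 residual degrees of freedom. The spread in this test comes from the females alone, and the lone males are assumed to vary as they do. None of the 10 mRNAs passed (limma, lowest adjusted p = 0.0968), against 0.248% of all genes. mt-Co3 had a log2 difference of -0.44 in females and 0.85 in the single pair of males (unadjusted p = 0.000657), and mt-Co2 had -0.29 and 0.34 (unadjusted p = 0.00651). These 2 of 10 compare with 11.0% of all genes at an unadjusted p under 0.05, and both rows have nearly all of their windows in nuclear copies.

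The nuclear partners of these mRNAs were examined in the same fit. Among 219 nuclear genes in 9 lists, 215 were tested, none passed the adjusted threshold between genotypes (adjusted p = 0.9995 for the lowest, limma) and 5 had an unadjusted p under 0.05, beside 2.43% of all genes, all 5 with a higher mean in MommeD43. The subunits of the complexes had slightly higher means in MommeD43. The log2 difference was above 0 in 25 of 36 nuclear subunits of complex I (median 0.06), 3 of 4 of complex II (0.04), 9 of 9 of complex III (0.06), 10 of 13 of complex IV (0.06), 16 of 17 of the ATP synthase (0.06) and 66 of 77 mitochondrial ribosomal proteins (0.07), beside a median of 0.00206 over all tested genes. Groups did not overlap in 10 of the 77 mitochondrial ribosomal proteins, beside 7.07% of all tested genes. Several of these medians depended on single libraries. Without MommeD43 replicate 3 they were 0.01 for complex I, 0.04 for complex II, 0.03 for complex III, 0.01 for complex IV, 0.02 for the ATP synthase and 0.03 for the mitochondrial ribosome, with 51 of 77 genes of the last above 0. Without WT replicate 3 they were 0.03, 0.07, 0.02, 0.02, 0.02 and 0.05 in the same order, and without WT replicate 1 that of complex II was 0.01, with 2 of 4 genes above 0.

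Named here are the genes with the smallest unadjusted p of each list in each direction, none of which passed adjustment. Ndufa9, a complex I subunit, averaged 42.9 ± 2.46 RPKM over WT libraries and 47.3 ± 1.32 over those of MommeD43 (log2 0.14 ± 0.06 SE), and Ndufc1 at 26.0 ± 1.77 and 23.6 ± 1.73 RPKM (-0.14 ± 0.08). In complex II these were Sdhb (0.10 ± 0.05) and Sdhc (0.00 ± 0.05), and in complex III, where no gene was below 0, Uqcrfs1, the Rieske iron-sulphur protein, at 80.8 ± 1.14 and 84.1 ± 1.42 RPKM (0.06 ± 0.05). Cox6b1 of complex IV was at 164 ± 7.74 and 180.0 ± 7.84 RPKM (0.13 ± 0.06) and Cox7a1, known as the isoform of muscle, at 1.467 ± 0.199 and 0.928 ± 0.541 RPKM (-0.83 ± 0.41). Atp5g3 and Atp5f1 of the ATP synthase differed by 0.10 ± 0.05 and -0.01 ± 0.05. Of the mitochondrial ribosomal proteins, Mrpl54 was at 45.5 ± 3.35 and 53.6 ± 6.18 RPKM (0.23 ± 0.09) and Mrpl45 at 29.3 ± 0.278 and 27.9 ± 1.04 RPKM (-0.07 ± 0.05).

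Genes that copy, transcribe and process the mitochondrial genome were closer to 0 as lists. Of 23 genes for transcription and replication of mitochondrial DNA, 9 were above 0 (median -0.02), with Ssbp1, the mitochondrial single-stranded DNA-binding protein, at 0.11 ± 0.09 and Rnaseh1 at -0.10 ± 0.07. Of 28 genes for processing and stability of mitochondrial RNA, 15 were above 0 (median 0.01), with Trnt1, which adds CCA to tRNAs, at 0.09 ± 0.06 and Mtpap, the mitochondrial poly(A) polymerase, at -0.14 ± 0.08. Of 8 tested regulators of mitochondrial biogenesis 2 were above 0 (median -0.03), with Esrra at 0.02 ± 0.12 and Nrf1 at -0.13 ± 0.07.

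These nuclear genes did not share the difference of the mitochondrial mRNAs between males and females. The median log2 difference, male minus female, was between -0.05 and 0.03 in the 9 lists, none of their genes passed the adjusted threshold by limma, and both males lay above all 4 females in 10 of the 215 genes, beside 8.59% of all genes. The summed level of the nuclear complex I subunits was 1520 and 1471 RPKM in the males and 1432 to 1626 RPKM in the females.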

How the data were processed

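Poly(A)-selected RNA-seq libraries were made from 100 ng of total RNA per tailbud and sequenced as single-end reads of 75 bases. The study's methods name a TruSeq RNA kit or a TruSeq stranded mRNA kit, without saying which served these libraries. Per the study's methods and the submitters' processing notes, the authors trimmed reads with Trim Galore 0.4.4, mapped them with HISAT2 2.0.5 to GRCm38.p6 and quantified genes in SeqMonk. The deposited values are log2 RPKM, made by the authors per library; their group means were not used. The table was named as counts but held log2 values.

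Of 35591 rows, 35555 matched GENCODE M21 by identifier, 49 rows with a repeated identifier were dropped and 35506 were kept. Reads were recovered as RPKM times exon length times library total (undetected genes sit at 0.9 read), and 98.7% of 49700 values under 200 reads were whole within 0.02. Genes needed the CPM of 10 reads in a median library in 3 libraries and 15 reads in all. Log2 RPKM, with no pseudocount, was tested with limma 3.58.1 in R 4.3.3 (mean-variance trend) over 14134 genes, and single values were tested with exact permutation or sign-flip tests (scipy 1.17.1). The script was tested on simulated data. Library pairs differed beyond counting noise (mean chi-square per gene at least 4.73), and replicates are separate embryos.

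The members, lists and tests were chosen with earlier results of these data known. All 13 members are named, and of each nuclear list the gene with the smallest unadjusted p in each direction. The planned results on rRNA and tRNA had no row to rest on and were not analysed here. Of 8 names listed as nuclear copies, 1 (Gm29215) was in the table, with no read, and it lies outside the chromosome 1 block.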

Additional observations from a re-analysis of the deposited data

How the results depend on the processing

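No mitochondrial mRNA and no nuclear list gene passed the adjusted threshold under any alternative run: scaling to non-mitochondrial reads or by median ratio, pseudocounts of 1 and 0.1 RPKM, both other filters, limma voom on recovered reads, the replicate block, each library left out, the females by themselves and a covariate for sex. The lowest adjusted p of a mitochondrial mRNA over all of these was 0.390, in females alone, where 11 of all genes passed. With the replicate block, 0 mRNAs were called, the share of reads differed by -0.0527 (exact sign-flip p = 0.5) and mt-Nd6 relative to the others by 0.55 (exact sign-flip p = 0.25). On 3 differences 0.25 is the smallest p this test can give, so it could not fall under 0.05. The study describes its embryos as 3 pairs matched by somites, and its methods do not say which embryos made a pair. Libraries of the same number did not deviate together throughout (correlations over 14134 genes of 0.02, 0.18 and -0.15 for replicates 1, 2 and 3). The labels give a shared mother for replicate 1 alone, and outside the replicate block the numbers were not taken as pairs.

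The direction of the differences between genotypes turned in some runs with 1 library left out, each of which also leaves the sexes unequal between the groups. It turned in 8 of 10 mRNAs without MommeD43 replicate 2, in 6 without WT replicate 1, in 3 without MommeD43 replicate 3, in 1 without WT replicate 2 and in 1 without MommeD43 replicate 1. In females alone all 10 kept their direction, and the part of sex in these turns was not tested. With 1 library left out, log2 differences ranged from -0.36 to 0.000524 for mt-Nd1, from -0.38 to 0.0328 for mt-Nd2, from -0.32 to 0.0503 for mt-Co1, from -0.41 to 0.12 for mt-Co2, from -0.81 to -0.36 for mt-Atp6, from -0.36 to 0.17 for mt-Co3, from -0.50 to 0.0230 for mt-Nd4, from -0.37 to 0.16 for mt-Nd5, from -0.00344 to 0.69 for mt-Nd6 and from -0.31 to 0.10 for mt-Cytb. The share of reads ranged from -0.190 to 0.0509, and was 0.0375 without MommeD43 replicate 2. With a pseudocount of 1 RPKM, mt-Co3 was at 0.00552. The number of mRNAs whose relative level did not overlap between groups fell from 1 to 0 with the median of the 13 as reference, without the 3 short rows, and with the 6 well-covered rows as reference, and was 1 to 3 with 1 library left out. mt-Nd6 relative to the others stayed above 0 in all alternatives run, at 0.235 to 0.820 with 1 library left out. Alternatives for rRNA and tRNA were not run. Rows with under 100 reads in all (mt-Nd3, mt-Nd4l and mt-Atp8) are limited by depth, and rows that share windows with nuclear copies by sequence.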
